A study of Mus musculus with 6 samples.

Results

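The regions described here are the retained-intron events with a high retention level in mouse bone marrow-derived macrophages. They were chosen by measured values: a JuncBASE event of the intron retention type was taken when all 6 libraries had a value and the mean of the 6 values was at least 25%. The rule took 238 of the 1992 retained-intron events with 6 values, out of 3305 such events and 10376 splicing events of all types. The level is the percent inclusion of the intron in a library, so 100% means that every informative read kept it. Its value, mean and range over the members are therefore a description of how they were selected. The macrophages were grown from the marrow of wild-type C57BL/6 mice in medium with 10% fetal calf serum and 10% L929 supernatant, which supplies the macrophage growth factor, and were harvested on day 11. The mice had been exposed to room air in one group (3 libraries) and to cigarette smoke in the other (3 libraries), so the exposure was of the animal, not of the cultured cells. The ages of the mice are not given in the sources used here. Nothing states that each library came from a different animal, so the spread between libraries may be partly technical.

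An intron is normally removed from the pre-mRNA by the spliceosome, which recognises a donor site at its start, usually GT, and an acceptor site at its end, usually AG. A transcript that keeps an intron may be held in the nucleus, be degraded when the intron brings a premature stop codon, or be exported and translated in another form. In macrophages, retained introns are known in genes of the innate immune response such as Irf7, and genes of splicing factors are known to keep introns or include poison exons as part of their own regulation.

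The sequences of 5 members show the kinds of region that the rule brought together. They were read from GENCODE M21 transcripts on GRCm38 (mm10), 5′ to 3′ on the strand of the host gene. The first 2 are segments inside exons that are not annotated as introns, with the segment in capitals and flanking exon bases in lower case. These are the segment of Xbp1 (chr11:5524278-5524303, plus strand, shown from 5524238 to 5524343) and that of Arhgap30 (chr1:171404981-171405107, plus strand, shown from 171404961 to 171405127), both in coding sequence. The last 3 are annotated introns of coding sequence, with the donor and acceptor bases in capitals. These are introns of Irf7 (chr7:141264560-141264724, minus strand), Csf2ra (chr19:61226056-61226214, minus strand) and Rab24 (chr13:55320554-55320744, minus strand).
Xbp1: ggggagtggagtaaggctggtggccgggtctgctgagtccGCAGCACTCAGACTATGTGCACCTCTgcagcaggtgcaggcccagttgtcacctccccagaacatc
Arhgap30: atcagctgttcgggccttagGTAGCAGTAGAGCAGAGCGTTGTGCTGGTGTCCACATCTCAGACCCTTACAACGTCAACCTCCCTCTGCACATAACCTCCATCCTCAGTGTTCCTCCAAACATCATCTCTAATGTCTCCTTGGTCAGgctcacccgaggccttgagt
Irf7: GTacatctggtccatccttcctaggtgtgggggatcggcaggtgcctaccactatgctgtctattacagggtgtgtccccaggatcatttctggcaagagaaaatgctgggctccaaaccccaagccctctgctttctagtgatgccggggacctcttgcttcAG
Csf2ra: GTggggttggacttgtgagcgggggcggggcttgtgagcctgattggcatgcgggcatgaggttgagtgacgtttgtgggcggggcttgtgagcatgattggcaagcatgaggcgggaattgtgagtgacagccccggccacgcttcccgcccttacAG
Rab24: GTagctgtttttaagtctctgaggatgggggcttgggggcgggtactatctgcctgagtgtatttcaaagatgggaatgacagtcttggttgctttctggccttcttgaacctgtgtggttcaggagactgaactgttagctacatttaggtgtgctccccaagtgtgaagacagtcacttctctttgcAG

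The name "intron" held for only part of the members. Of the 238, 163 (68.5%) had the same start, end and strand as an intron of GENCODE M21, and 75 (31.5%) were not annotated as introns there. Among the 1754 retained introns below the threshold, 1744 (99.4%) were annotated and 10 were not. The unannotated segments filled the top of the range: 54 of the 83 members with a mean of 90% or more were unannotated, against 5 of the 73 members under 50%. Their median level was 95.4%, and that of the annotated members was 59.1%. The members are therefore called annotated introns and unannotated segments below. This division was made after the data had been seen.

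**Figure D1:**
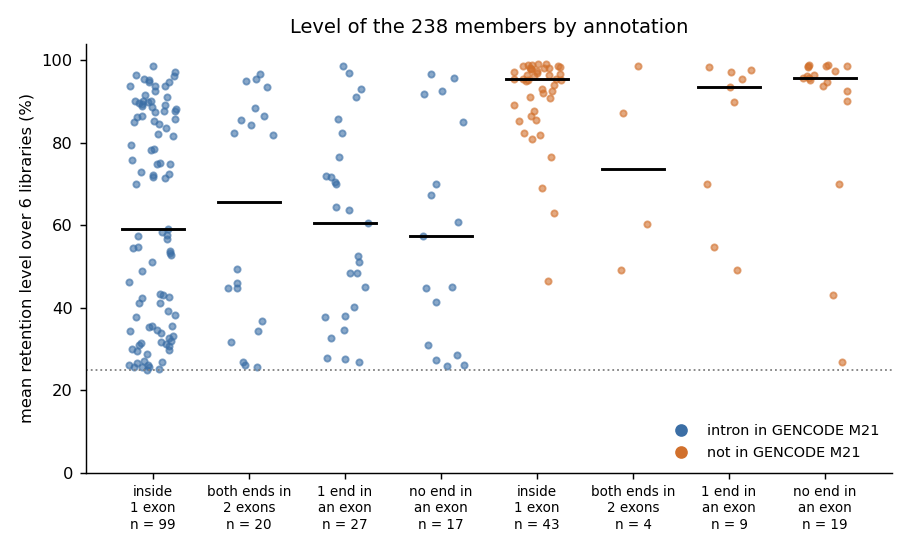
Mean retention level over the 6 libraries (%, vertical axis) of each of the 238 members, with annotated introns in blue and unannotated segments in orange, split by whether the region lies inside 1 annotated exon or has ends in annotated exons. Each point is a member, the black line is the median of its class, and the dotted line is the 25% threshold of the rule. The unannotated segments inside 1 exon crowd above 80%, with a median of 95.4%, while the annotated introns spread over the whole range.

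Many members lay within sequence that another transcript counts as exon. A whole annotated exon covered 142 of the 238 (59.7%, 95% Wilson interval 53.3% to 65.7%), against 548 of the 1754 others (31.2%). Both ends lay in 2 different exons for 24 members, 1 end lay in an exon for 36, and neither end for the last 36. Over annotated introns alone, 99 of 163 members (60.7%) and 547 of 1744 others (31.4%) were covered by 1 exon. GENCODE itself gives a transcript of the retained intron type over 50 of the 99 covered members and over 441 of the 547 covered others, and a protein-coding transcript over 50 and 68. With the exons of the authors' merged annotation the covered shares were 71.0% and 41.8%. These shares were compared as descriptions, without a test, since introns of the same gene are not independent.

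The annotated members also differed in place from the annotated introns below the threshold. The last intron of its transcript made up 49 of the 163 members (30.1%) against 16.9% of the others, the first 22 (13.5%) against 4.64%, and the only intron 8 (4.91%) against 0.516%. Inner introns were 84 members (51.5%) and 77.9% of the others. Coding sequence held 96 members (58.9%) and 94.7% of the others. The 3′ UTR held 24 (14.7% against 1.66%), the 5′ UTR 18 (11.0% against 2.75%) and transcripts without a coding frame 25 (15.3% against 0.86%).

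**Figure D2:**
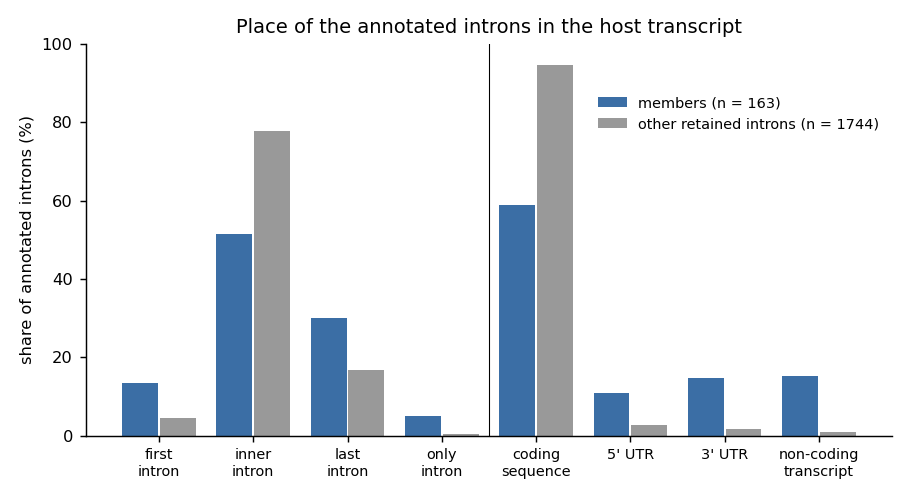
Share (%, vertical axis) of annotated introns by their position in the transcript (left of the line) and by the part of the transcript they lie in (right of the line), for the 163 annotated members (blue) and the 1744 annotated retained introns under the threshold (grey). Members are more often last, first or only introns and are less often within coding sequence, 58.9% against 94.7%.

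Lengths covered a wide range. The median was 311.5 bases for all members, with quartiles of 139.25 and 1042.25 and a range of 20 to 17448, the longest being an intron of Cat, the catalase gene. It was 370 bases for annotated members and 453 for annotated others, and 191 for unannotated segments. Regions under 60 bases numbered 14 among the members, 12 of them unannotated, and 1 among the others. An annotated small RNA gene lay within 1 member, a last intron of 2010111I01Rik on chromosome 13 that contains Mir23b, Mir27b and Mir24-1, and within 23 of the others.

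Bases could be read for the regions covered by 1 annotated exon. Of the 99 annotated members read, 97 began with GT and ended with AG and the last 2 were of the GC-AG type, and 542 of the 547 annotated others read were GT-AG. Of the 43 unannotated segments read, 28 (65.1%) were GT-AG and 15 had other ends. Median GC content was 50% in the annotated members and 52.7% in the annotated others. The donor motif GTAAGT or GTGAGT, searched on the transcript strand at the first base of GT-AG regions, was present in 21 of 97 annotated members (21.6%), in 142 of 542 annotated others (26.2%) and in 0 of the 28 unannotated segments. The 20 bases that precede the last 3 bases had a median pyrimidine share of 70.0% in annotated members, 75% in annotated others and 62.5% in the unannotated segments. Among the coding introns read, the reading frame met a stop codon in 45 of 55 members (81.8%) and in 446 of 514 others (86.8%). A length that is a multiple of 3 with no stop in frame was found in 5 members (9.09%) and 23 others (4.47%).

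The unannotated segments that were read lay in 3′ UTRs (16), coding sequence (14), non-coding transcripts (9) and 5′ UTRs (4). Some were framed by direct repeats, here the number of bases by which the segment can be shifted along the transcript without changing what is left after its removal. A repeat of at least 8 bases was found in 7 of the 43 (16.3%), in 2 of the 99 annotated members and in 1 of the 547 annotated others. No strand was given for 14 of the 75 unannotated segments, nor for 4 of the retained introns below the threshold.

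Cxcl16, the gene of a membrane-bound chemokine, held 4 overlapping or neighbouring segments in its 3′ UTR, of 40, 160, 40 and 120 bases, with direct repeats of 31, 29, 39 and 39 bases. Their means over room air were 94.2%, 91.2%, 83.4% and 98.2%, and over smoke 93.8%, 91.1%, 87.1% and 98.0%, with overlapping values in all 4. Reads that cross such a repeat can be placed in more than 1 way, and its part in the levels was not tested.

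The Xbp1 segment of 26 bases lies where the endoplasmic reticulum sensor IRE1 is known to cut Xbp1 mRNA in the unfolded protein response, a splicing step made in the cytoplasm without the spliceosome. Removing it shifts the reading frame and yields the active transcription factor. The segment does not begin with GT or end with AG, and its ends share a direct repeat of 6 bases. Its level was 87.5%, 89.5% and 91.1% in the room air libraries and 81.8%, 81.5% and 87.8% in the smoke libraries. The groups overlapped by 1 library, since smoke replicate 3 was above room air replicate 1. The difference did not pass the limma test over all 10376 events (adjusted p = 0.574).

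The highest mean of any member was 99.1%, for the Arhgap30 segment of 127 bases printed above. It was at 94.6% in room air replicate 1 and at 100% in the other 5 libraries. Among members with a named host gene, taking 1 per gene, the next were unannotated segments of Vapa, Zbtb7a, Sfpq, Fmnl1, Mcm3 and Kcnn4, the last intron of Phykpl, the only intron of a Sec62 transcript and an unannotated segment of Mtss1. Of these 10, 8 were unannotated, and at least 3 libraries stood at 100% in each. A level of 100% in at least 1 library was found in 71 of the 238 members. At the other end, the 3 members just inside the threshold were introns of Srsf2, Ssna1 and Nxf1 with means of 25.01%, 25.26% and 25.57%, and the 3 just outside were introns of Sirpa, Qk and Wbp1 with 24.6%, 24.5% and 24.2%.

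After smoke exposure the members as a whole stood a few percentage points lower, as did the retained introns below the threshold. The mean level over the 238 members was 72.1%, 72.4% and 71.1% in the room air libraries and 67.8%, 67.6% and 68.1% in the smoke libraries. The groups did not overlap, with group means of 71.9% ± 0.669 and 67.8% ± 0.218 (SD, n = 3 each) and a difference of -4.04 percentage points. The other 1754 retained introns went from 8.05% ± 1.03 to 3.79% ± 1.43 (SD, n = 3 each), a difference of -4.26 percentage points. By library, in replicate order, their mean was 7.91%, 9.14% and 7.10% for room air and 2.46%, 3.60% and 5.30% for smoke, and their median was 0% in smoke replicates 1 and 2 and 4.09% in smoke replicate 3. The smoke values of these introns thus stand in the same order as the number of values the library has, given below. The room air values do not: replicate 3 has the most values and the lowest mean. The part of the number of values in the difference was not tested. The annotated members differed by -4.77 percentage points and the unannotated segments by -2.43. In single members the mean was lower after smoke for 185 of 238 (77.7%) and higher for 53, against 1657 of the 1754 others lower (94.5%). On the log2 odds scale, on which a given number of points weighs more near 0% and 100%, the median difference was -0.43 for the members and -1.35 for the others. In these bulk libraries, fewer cells of a kind and a lower level per cell cannot be told apart.

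The libraries were not alike in how many events they measured. Of the 3305 retained introns, the room air libraries lacked values for 85, 2 and 1 (replicates 1 to 3 in order), and the smoke libraries for 1230, 65 and 10. Smoke replicate 1 stood apart. Since the rule asks for 6 values, 1313 retained introns could not be members, and 1230 of them lacked a value in that library. Without it, the difference of the mean level over the members was -4.02 percentage points. Its part in the membership was not tested. Macrophage markers were present for the label: all 10 were listed in the authors' deposited table, the lowest at 401 normalized counts in room air and 348 after smoke, and their summed level was 57436.5 in room air and 58343.6 after smoke. Neutrophil markers summed to 0.322 and 0.508 (4 of 10 listed), B cell markers to 6.31 and 4.14 (3 of 5), erythroid markers to 0 and 0.508 (1 of 6), and the only T cell marker listed of 4 to 29.0 and 22.4 in that table. Stromal markers (5 of 5 listed) summed to 40.2 in room air and 6.44 after smoke in the authors' deposited table, and their part in the results was not tested.

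No single member passed the test of smoke against room air. Of the 238 members, 0 had an adjusted p under 0.05 in limma (Benjamini-Hochberg over all 10376 events), where the share of all events called was 0%. At an unadjusted p under 0.05 limma gave 8 members, all lower after smoke (3.36%), beside 9.29% of all events lower and 1.55% higher at that level. That count rested on single libraries: it was 4 without room air replicate 1, room air replicate 3 or smoke replicate 1, 1 without room air replicate 2, 14 without smoke replicate 2 and 23 without smoke replicate 3. The lowest adjusted p of a member was 0.305. On simulated levels, described below, the test recovered 0% of changes of 2 log2 odds. The lack of calls therefore does not show that the members were unchanged. The authors' deposited JuncBASE table gave 12 members (5.04%) with a raw p under 0.05, beside 4.15% of all events, and 0 with a corrected p under 0.05.

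The share of members whose groups did not overlap differed between ranges of level, which were compared without a test. In 72 of the 238 members (30.3%) every smoke value was under every room air value, beside 38.7% of the 1992 retained introns with 6 values. Every smoke value was over every room air value in 2 members, beside 0.251%. Between 25% and 50% retention, 36 of 73 members (49.3%) had all smoke values lower, between 50% and 75% 10 of 38 (26.3%), between 75% and 90% 18 of 44 (40.9%), and at 90% or more 8 of 83 (9.64%). Members of the lowest range can meet the 25% rule through room air alone. Introns of Srsf11, Rab24, Srsf2, Nxf1, Cd68 and Tcirg1 and the Hnrnph1 intron of 939 bases, among others, had smoke means under 25%. The part of the rule in the share of 49.3% was not tested. By annotation, 59 of the 163 annotated introns (36.2%) and 13 of the 75 unannotated segments (17.3%) had all smoke values lower. Members without any overlap with an annotated exon gave 3 of 34 (8.82%).

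**Figure D3:**
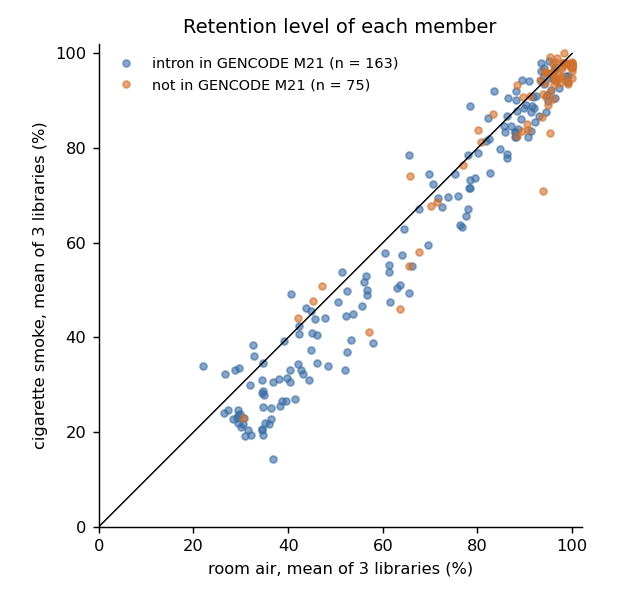
Mean retention level of each of the 238 members over the 3 room air libraries (%, horizontal axis) and over the 3 cigarette smoke libraries (%, vertical axis), with annotated introns in blue and unannotated segments in orange. The line marks equal levels. 185 of the points lie below it, most of them by a few percentage points, and the unannotated segments gather in the upper right corner.

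Genes of splicing factors were among the hosts with several members. Of 63 splicing factor genes on the list, 11 held 19 members: Ddx17, Hnrnpa2b1, Hnrnpdl, Hnrnph1, Luc7l3, Srsf1, Srsf2, Srsf5, Srsf6, Srsf7 and Srsf11. The mean after smoke was lower in 15 of the 19 (78.9%), beside 77.7% of all members and 94.5% of the retained introns below the threshold. The median difference was -11.58 percentage points, beside -3.46 over all members. Every smoke value was under every room air value in 13 of the 19 (68.4%), beside 30.3% of all members, 38.7% of the retained introns with 6 values and 49.3% of the members at levels of 25 to 50%. The median level of the 19 was 48.4%. Several of the 19 share a junction, as in Hnrnph1, Hnrnpa2b1 and Srsf5, so they are not separate observations. The list had been drawn up with earlier results of these data known, so its direction is no independent evidence.

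The lowest p of any member in limma was that of an intron of Srsf11, which encodes a serine- and arginine-rich (SR) protein. This intron of 3774 bases (chr3:158022951-158026724, minus strand, the third of 12) was retained at 35.3%, 45.0% and 30.3% in the room air libraries and at 9.09%, 16.7% and 17.5% in the smoke libraries. The groups did not overlap, with a gap between the lowest room air library and the highest smoke library. The room air mean was 36.9% and the smoke mean 14.4%, so this intron met the 25% rule only through room air. The part of the rule in this separation was not tested. The difference was -22.4 percentage points, or -1.77 ± 0.53 (SE) log2 odds, with an adjusted p of 0.305 in limma.

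The genes of heterogeneous nuclear ribonucleoproteins, which bind pre-mRNA and influence splice site choice, had several such introns. The last intron of Hnrnpa2b1 (chr6:51461434-51463410, minus strand, in the 3′ UTR) was retained at 53.0%, 63.2% and 57.5% in the room air libraries and at 33.3%, 42.9% and 40.2% in the smoke libraries (limma, adjusted p = 0.458). In Hnrnph1, 3 members shared ends: an intron of 2572 bases, and introns of 1494 and 939 bases on either side of an exon within it. The shorter downstream intron (chr11:50381598-50382536, plus strand) stood at 37.1%, 37.3% and 33.3% in room air and 19.1%, 20.6% and 25.4% after smoke. All 3 Hnrnph1 members had smoke values wholly below the room air values, as did 38.7% of the retained introns with 6 values. A further Hnrnpa2b1 intron, of 1863 bases, was higher on average after smoke, at 100%, 92.4% and 89.8% in room air and 100%, 100% and 90.8% after smoke, with overlap. Because their junctions are shared, they are not 3 separate observations.

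Some introns of further SR protein genes stood lower after smoke as well. The Srsf5 intron of 1229 bases (chr12:80947866-80949094, plus strand) was at 55.2%, 48.0% and 42.2% in room air and 29.4%, 35.8% and 36.8% after smoke. The last intron of Luc7l3, whose product associates with the U1 particle that reads donor sites, stood at 44.9%, 45.1% and 43.1% in room air and 25%, 33.3% and 35% after smoke. That of Srsf2 (1059 bases, 3′ UTR) was at 32.7%, 35.6% and 24.2% against 17.4%, 17.1% and 23.2%, close to overlapping. A further Srsf2 member had a difference of the opposite sign in the authors' deposited rMATS table, described below. Srsf7 and Srsf6 introns differed by -12.7 and -11.9 percentage points, with no overlap between the groups, as in 49.3% of the members at levels of 25 to 50% and 30.3% of all members. None of these had an adjusted p under 0.05 in limma.

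Srsf1 went the other way. Its last intron, in the 3′ UTR (chr11:88050096-88050976, plus strand, 881 bases), was retained at 82.4%, 73.7% and 79.2% in the room air libraries and at 88.5%, 91.8% and 86.2% in the smoke libraries. All smoke values were higher, by 10.4 percentage points on average (limma, adjusted p = 0.476). The only other member with all smoke values higher was an unannotated segment of 3479 bases on the strand opposite to Cep85, at 70.6%, 61.5% and 65.4% against 73.3%, 75% and 73.9%. The 2 members with a larger mean difference upward had overlapping groups. One was an intron of Gpsm3, at 60.9%, 68.0% and 67.4% against 100%, 74.2% and 61.7%. The other was an intron of Ppp2r5c, a regulatory subunit of protein phosphatase 2A, at 24.1%, 19.2% and 22.5% against 23.1%, 46.7% and 31.9%.

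Further members with a low limma p lay in Csf2ra, Rab24 and Trem2. Csf2ra encodes the alpha chain of the GM-CSF receptor, and its intron of 159 bases printed above was retained at 56.7%, 48.3% and 51.0% in room air and 36.4%, 32.3% and 31.0% after smoke (limma, adjusted p = 0.436). A neighbouring Csf2ra intron of 139 bases was at 40%, 43.1% and 41.5% against 25%, 25% and 31.0%. The groups were separate in both, as they were, with smoke lower, in 49.3% of the members at levels of 25 to 50%. In Rab24, a small GTPase linked to autophagy, the intron of 191 bases printed above stood at 34.2%, 38.8% and 31.3% in room air and 19.2%, 15.6% and 23.01% after smoke (limma, adjusted p = 0.443). An unannotated segment of 897 bases in Trem2, a lipid-sensing receptor, stood at 100%, 93.4% and 92.5% against 80.0%, 78.6% and 90.9%.

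Of 43 lysosome and antigen presentation genes on the list, 3 held a member each, and in all 3 the smoke values were wholly below the room air values, beside 38.7% of the retained introns with 6 values and 49.3% of the members between 25% and 50%, where 2 of the 3 lie. The intron of Cd68, a lysosomal glycoprotein of macrophages, was at 33.3%, 38.6% and 33.3% in room air and 22.2%, 20.9% and 22.5% after smoke. The Tcirg1 intron of 308 bases, in the gene of a subunit of the proton pump that acidifies lysosomes, was at 39.2%, 38.9% and 31.4% against 19.6%, 24.8% and 24.04%. The Cd68 and Tcirg1 introns had smoke means of 21.9% and 22.8%, so both met the 25% rule only through room air. The last intron of H2-K1, a class I histocompatibility gene, stood at 76.1%, 77.9% and 81.2% against 72.9%, 74.8% and 72.2%.

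Of 85 innate immune genes on the list, 2 held a member. Irf7 encodes a transcription factor of the type I interferon response, and its intron of 165 bases, printed above, was retained at 43.4%, 44.1% and 39.2% in the room air libraries and at 42.3%, 36.8% and 48.0% in the smoke libraries. The values of the groups overlapped (limma, adjusted p = 0.996). In Oas1g, of the family that senses double-stranded RNA, an intron of 2552 bases stood at 57.7%, 48.5% and 51.1% against 29.4%, 45.0% and 36.7%, with no overlap between the groups (limma, adjusted p = 0.524).

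**Figure D4:**
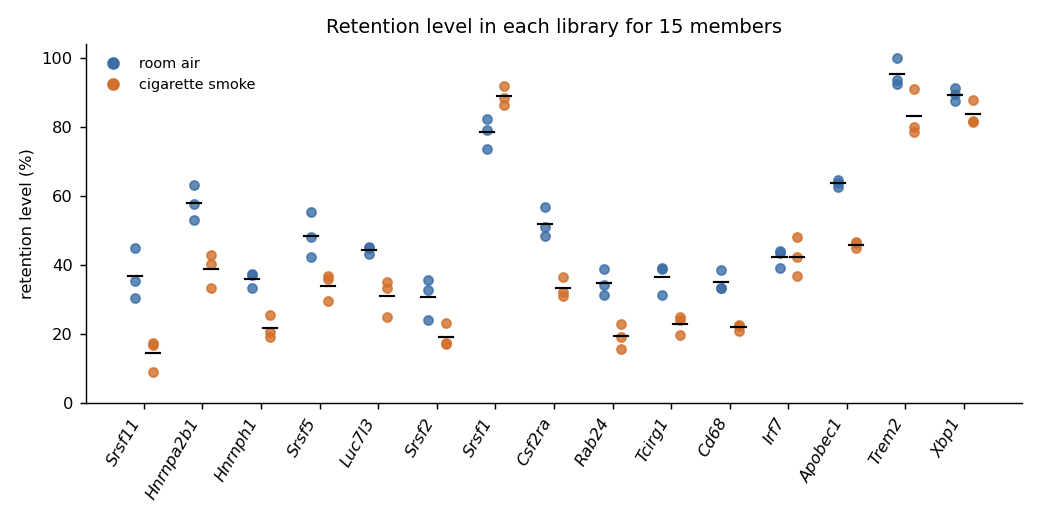
Retention level (%, vertical axis) in each of the 3 room air libraries (blue) and the 3 cigarette smoke libraries (orange) for 15 members described in the text, 1 per host gene. Points are libraries and black lines are group means. In Srsf1 the smoke values lie above the room air values, in Irf7 and Xbp1 they overlap, and in the other 12 they lie below. The members were picked for description, and over all 238 members the smoke values lay below in 30.3%.

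Apobec1 encodes the enzyme that edits cytidine to uridine in Apob and other mRNAs, and 3 members with a common end lay in it. The annotated last intron (chr6:122587354-122588144, minus strand, 791 bases) was retained at 78.3%, 74.4% and 77.5% in room air and 64.7%, 61.5% and 63.9% after smoke. An unannotated segment of 426 bases within it stood at 63.9%, 62.7% and 64.5% against 46.3%, 44.8% and 46.6%, with an SD of 0.93 and 0.938 (n = 3 each), among the tightest of the members named here. Its difference of -17.8 percentage points had an adjusted p of 0.452 in limma. On untransformed percentage points limma gave this segment an adjusted p of 0.0466, the 1 member that passed in that setting, in which 5 of all 10376 events passed. A second unannotated segment, of 445 bases, stood at 59.5%, 58.0% and 53.9% against 40.7%, 42.1% and 40.7%.

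Other members with an unadjusted limma p under 0.05 were close to full retention in room air. A 3′ UTR segment of Mid1, a ubiquitin ligase gene, with a direct repeat of 17 bases, was at 100%, 100% and 81.3% in room air and 63.6%, 76.9% and 72.0% after smoke (adjusted p = 0.356). The only intron of a Dusp7 transcript, from a phosphatase gene, stood at 100%, 97.0% and 100% against 91.7%, 93.9% and 96.6% (adjusted p = 0.366). An intron of Myh9, the gene of a non-muscle myosin heavy chain, stood at 94.6%, 96.4% and 98.3% against 87.5%, 93.1% and 91.0% (adjusted p = 0.453). This Myh9 intron is the third of 4 in its transcript, and both its ends lay inside annotated exons of other transcripts. Not among those 8, a segment of Fth1, the ferritin heavy chain gene, ran from 96.7%, 98.7% and 99.2% to 92.6%, 95.0% and 96.2%, just without overlap, at an unadjusted p in limma above 0.05.

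Of 22 genes known from other work for retained introns, 3 held 5 members, all lower on average after smoke, beside 77.7% of all members. The Nxf1 intron is the tenth of 20 and lies in the gene of the main mRNA export factor, in which a retained intron is known to carry an export element. It was at 25.9%, 35.1% and 29.2% in room air and 13.3%, 26.1% and 23.8% after smoke, with overlap. The Neat1 intron of 143 bases, in the paraspeckle RNA, stood at 92.1%, 95.7% and 97.0% against 95.0%, 86.7% and 88.4%, also with overlap. Eif4a2, a translation initiation helicase gene, held 3 members. Its coding intron of 454 bases was at 35.3%, 40.5% and 33.3% against 26.3%, 20.6% and 28.5%, the 1 of the 5 without overlap, beside 38.7% of the retained introns with 6 values.

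The same introns were looked up in the authors' deposited rMATS table, the output of a second program that the labels list for each of these samples. That table gives the difference between a sample set 1 and a sample set 2 without naming the groups, so no direction is drawn from it. Of the 238 members, 72 had identical coordinates there, 65 annotated and 7 unannotated, and 20 of these (27.8%) had a false discovery rate under 0.05, in 16 host genes, beside 14.5% of all 3887 introns of the authors' deposited table. Among the 237 other retained introns with 6 values that matched, 43.5% were called in that table. The 20 comprised 19 that were higher in set 1 and 1 that was higher in set 2, the Srsf1 intron, in the authors' deposited table.

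Among the members, the widest differences in the authors' deposited rMATS table were in Apobec1. There the segments of 445 and 426 bases differed by 19.8 and 19 percentage points, at false discovery rates of 1.59e-09 and 3.66e-08, and the whole last intron by 12.4 percentage points at 3.83e-07. Rab24 followed with 17.1 percentage points in the authors' deposited table (false discovery rate 0.000367). Differences of 13.9 percentage points were listed in the authors' deposited table for the long Hnrnph1 intron (0.0396) and for Nxf1 (0.00412). The authors' deposited table listed Srsf1 with -13.5 percentage points (0.00069), Tcirg1 with 12.6 (1.16e-06), Srsf2 with 12.2 (0.000128) and Hnrnpa2b1 with 10.2 (0.00235). A further Srsf2 member (chr11:116850354-116850855, minus strand) had the opposite sign there, at -5.9 percentage points (false discovery rate 0.116). Of the 11 splicing factor members matched in the authors' deposited table, 7 were called, 6 of them higher in set 1, beside calls for 27.8% of all matched members, 43.5% of the matched others and 14.5% of all introns of that table. The Luc7l3 intron was not called there, with 3.6 percentage points (false discovery rate 0.548).

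Expression of the host genes was read from the authors' deposited expression table, whose fit covered 24 libraries. Their median mean in room air was 859 normalized counts in that table, and membership itself needed a value in all 6 libraries, which rests on reads from the host. Of 152 host genes tested, 12 (7.89%) had an adjusted p under 0.05 in the authors' deposited table, close to the 7.69% of all genes. The 8 that were lower after smoke (5.26%) stood beside 3.53% of all genes, and the 4 that were higher (2.63%) beside 4.15%. The median log2 fold change of the hosts was 0.04 in the authors' deposited table, and -0.0029 over all genes.

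The hosts with the largest called changes were few. Uqcrq, a subunit of respiratory complex III, had a log2 fold change of 0.94 in the authors' deposited table (adjusted p 0.00197). Its first intron, of 85 bases, stood at 88.9%, 94.6% and 90.5% in room air and 76.9%, 88.6% and 85.3% after smoke. Rsrp1, an arginine- and serine-rich protein gene, had -0.77 (adjusted p 1.23e-05) in the authors' deposited table, Luc7l3 -0.70 (0.00132), Gm20559 -0.58 (0.000946), Rmnd5a -0.50 (0.00508) and Srsf11 -0.50 (0.0142). B3gnt8 had 0.54 (adjusted p 0.0404) and Hnrnpa2b1 -0.47 (adjusted p 0.0257) in the authors' deposited table. Over the 63 splicing factor genes, 15 were lower and 1 was higher in the authors' deposited table at an adjusted p under 0.05, beside 3.53% and 4.15% of all genes tested; that list was chosen with earlier results known.

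The members were unevenly spread over hosts. They fell into 198 stretches that do not overlap and 160 merged loci, and 154 host genes were named, of which 38 held more than 1 member. Of the 238, 218 had 1 host gene, 3 had several, and 17 had none, with hosts sought on the member's strand or, for the 14 members without one, on either, 16 of which lay opposite to a gene. Among these were 3 overlapping segments opposite to Sfr1 and 2 opposite to each of Mki67 and Tacc3. Reads from a gene and its opposite strand can be told apart only if the counting used strand, which is not given in the sources used here.

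Lilr4b held 13 members, the most of any gene. It belongs to the immunoglobulin-like receptors of myeloid cells and has a near-identical neighbour, Lilrb4a, so reads may be shared and its levels are uncertain. Its members ran from a mean of 28.3% to 90.7% in room air and from 22.9% to 86.2% after smoke. In 9 of the 13 the smoke values were wholly under the room air values, beside 30.3% of all members and 38.7% of the retained introns with 6 values. Many of the 13 overlap another or share an end, so they are not all separate observations. The coding intron of 142 bases (chr10:51481425-51481566, plus strand) had the widest difference, at 53.4%, 54.7% and 51.4% against 44.5%, 40.3% and 33.9%. The intron of 857 bases, at 39.9%, 40.8% and 38.8% against 30.9%, 32.6% and 30.8%, also had no overlap. Neither passed limma (adjusted p 0.524 and 0.623).

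Lgals3, the gene of the lectin galectin-3, held 4 members at its 5′ end with room air means of 94.8% to 100% and smoke means of 91.2% to 97.0%. Their smoke and room air values overlapped in all 4. Rsrp1 also held 4, and 2 of them showed no overlap, beside 30.3% of all members and 38.7% of the retained introns with 6 values. One was the coding intron of 1302 bases, at 79.3%, 78.0% and 77.4% in room air and 70.5%, 71.9% and 72.1% after smoke. The other was the intron of 204 bases, at 99.1%, 99.2% and 98.9% against 91.7%, 95.2% and 98.8%.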

How the data were processed

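RNA was sequenced from 6 macrophage libraries, 3 per group, grouped by their titles. Per the submitters' processing notes, reads were handled with STAR, SAMtools 1.9, bedtools 2.27.1 and DESeq2 on mm10, whose introns were checked against GENCODE M21: of 1861 retained introns marked as known with 6 values, 100% had identical coordinates. The kit is directional, per the labels' protocols. How the counting used strand, and whether poly(A) RNA was selected, is not given in the sources used here.

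The authors deposited JuncBASE levels in percent per event and library, with raw and corrected p-values. The library columns matched 1 sample description each apart from a prefix. The difference columns of the authors' deposited tables are other quantities, as points or fractions. In their rMATS table, also deposited, 6 columns of per-sample values were not used here, since its sample sets are unnamed. The expression table holds group means of size-factor-normalized counts as signal, log2 fold changes with standard errors, a Wald score and adjusted p-values, all deposited by the authors from a fit of 24 libraries.

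Introns were taken as the authors' coordinates. Hosts came from an identical GENCODE intron, else a spanning exon, else overlap, on the same strand or, for members without a strand, on either; merged loci came from the authors' merged annotation. Sequences came from GENCODE transcripts where 1 exon spanned the region. Each level was expressed as log2 odds after adding 1 percentage point to the retained and to the spliced share, and fitted with limma 3.58.1 in R 4.3.3 on all 10376 events with at least 2 values per group, with Benjamini-Hochberg adjustment over all of them and a threshold of 0.05. Tables were joined with pandas 2.3.3 in Python 3.11.15. No read counts were used here, so the depth is unknown, no coverage minimum could be set, and missing values give only a partial view of depth. Tested on simulated levels of 5933 events with 200 changed, the smoke against room air test recovered 0%, 63% and 88.5% of changes of 2, 4 and 6 log2 odds, with 0, 5 and 7 false calls. Intervals of shares are 95% Wilson intervals and cover counting error only.

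The members, the gene lists and the markers were chosen with earlier results of these data known. Genes were named by rule: the 10 highest means and the 10 lowest limma p of different hosts, up to 8 rMATS and up to 8 expression calls of the largest size, the 3 largest differences upward, the 15 members of listed hosts with the lowest limma p, the 3 members on either side of the threshold and the 4 hosts with most members. Others (the Xbp1, Neat1, Eif4a2, Irf7, H2-K1, Cep85, Cat and Mir23b regions, further members of a named or listed host, and the hosts opposite to members) were chosen after their values were seen. Alternatives were another pseudocount or scale, other events in the fit, a replicate block, other thresholds, subsets of members, and each library left out. Some items are not reported here.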

Additional observations from a re-analysis of the deposited data

How the results depend on the processing

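For the 10 members of different hosts with the lowest limma p, 119 results under the alternatives kept their direction and their side of the threshold in limma, and 1, the Apobec1 segment of 426 bases on untransformed percentage points (adjusted p 0.0466), passed it. That setting called 1 member and 5 of 10376 events, with 67 members at an unadjusted p under 0.05. With each library left out in turn, limma called 0 to 1 members, the 1 being the Rsrp1 intron of 204 bases without smoke replicate 3 (adjusted p 0.0396), a fit that called 718 of 5982 events. Under a replicate block limma called 0 members, with 4 at an unadjusted p under 0.05. The 8 members at that level in the fit reported became 7 and 17 with a pseudocount of 0.5 and 5, 17 over events with 6 values and 3 over retained introns alone. The libraries showed no sign of pairing by replicate number. The correlation of deviations from the group means over 5933 events was 0.0177, -0.0404 and -0.0888 for numbers 1, 2 and 3. Such low values cannot exclude a pairing, since the noise of the levels is unknown.

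The count of 72 members with all smoke values lower became 36 of 165 at a mean of at least 50%, 3 of 34 without members that overlap an annotated exon, 46 of 157 (29.3%, close to the 30.3% of all members) with 1 member per host gene, where the 3 members with several hosts each count as a host, and 13 of 75 over unannotated segments alone, and ran from 76 to 95 with 1 library left out, where fewer values make separation easier. The mean difference of -4.04 percentage points became -2.84 at a mean of at least 50%, -2.07 without overlap with an exon, -4.77 over annotated introns, -2.43 over unannotated segments and -2.28 as the difference of medians, and ran from -4.41 to -3.77 with 1 library left out. The host genes called in expression numbered 23 in place of 12 at an adjusted p under 0.1 in the authors' deposited table, 15.1% beside 12.8% of all genes tested. The share of members inside 1 exon moved from 59.7% to 71.0% with the authors' merged exons. The cause of these differences was not tested. The division by annotation and the merged exons were chosen after the data were seen. Without read counts, a difference that the number of reads behind a level could not resolve is not detectable here.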
